A study of Homo sapiens with 6 samples.

Results

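The genes described here encode the enzymes that hydroxylate collagen and the lysyl oxidases that cross-link it. They are the lysyl hydroxylases PLOD1, PLOD2 and PLOD3, the prolyl 4-hydroxylase alpha subunits P4HA1, P4HA2 and P4HA3, the prolyl 3-hydroxylase P3H1, its non-catalytic relative P3H4, and the lysyl oxidases LOX and LOXL2. They were chosen by name, as 10 of the 18132 genes measured, and each was read from the probe sets whose annotation names that gene alone. These were 30 of the 44988 probe sets with 1 gene symbol, and 0 further probe sets listed a member beside another gene. The members were picked with earlier results of these data known.

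RNA was measured on 6 Affymetrix PrimeView arrays. Of these, 3 came from cells given lentivirus with a short hairpin RNA (shRNA) against SHCBP1 and 3 from cells given lentivirus with a control shRNA. Cells of both groups were grown in the same serum-containing medium. SHCBP1 binds the adaptor protein SHC1 and takes part in cytokinesis, and the comparison asks what differs once it is knocked down. By title the cells are TPC-1, a line from a human papillary thyroid carcinoma, whereas the extraction text speaks of DLD1, a colorectal carcinoma line. No time after infection is given, and no other hairpin against SHCBP1 or rescue was analysed here, so effects of SHCBP1 loss and of the hairpin itself cannot be told apart. The labels do not say whether the 3 samples of a group were separate cultures, so the p-values cover only the spread between these samples, and that spread may be technical.

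Lysyl hydroxylases add hydroxyl groups to lysine in newly made collagen inside the endoplasmic reticulum. Prolyl hydroxylases do the same to proline, which lets the triple helix hold at body temperature. All of them belong to a family of enzymes that need iron, oxygen, 2-oxoglutarate and ascorbate. PLOD2 is the member known for hydroxylating the telopeptides at the ends of the collagen chain, and it thereby sets which kind of cross-link forms. LOX and LOXL2 are copper enzymes that act outside the cell and oxidise lysine and hydroxylysine so that neighbouring chains join. In carcinomas, PLOD2, P4HA1, P4HA2, LOX and LOXL2 are known as targets of the hypoxia-inducible factors (HIFs).

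The start regions of 5 members are shown because they include the one gene that rose, 3 that fell and 1 that did not pass the test, and because HIFs bind a short core motif. Each is 300 bases, 250 before and 50 after the annotated gene start, taken from RefSeq (GRCh38.p14) and printed 5′ to 3′ on the gene's strand. RefSeq start regions were examined for 7 of the 10 members. Those of P4HA3, P3H4 and LOXL2 were not examined, so their matches are unknown here. Capitals mark the letters ACGTG or GCGTG on either strand, and no match overlapped another in these 5 windows.
PLOD2 (chr3:146161135-146161434, minus strand): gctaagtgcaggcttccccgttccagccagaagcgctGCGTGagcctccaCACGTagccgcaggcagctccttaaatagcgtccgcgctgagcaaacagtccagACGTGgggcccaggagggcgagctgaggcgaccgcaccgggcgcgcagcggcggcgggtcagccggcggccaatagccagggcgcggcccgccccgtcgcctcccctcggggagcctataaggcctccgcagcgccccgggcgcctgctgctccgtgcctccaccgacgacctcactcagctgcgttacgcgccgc
PLOD1 (chr1:11934467-11934766, plus strand): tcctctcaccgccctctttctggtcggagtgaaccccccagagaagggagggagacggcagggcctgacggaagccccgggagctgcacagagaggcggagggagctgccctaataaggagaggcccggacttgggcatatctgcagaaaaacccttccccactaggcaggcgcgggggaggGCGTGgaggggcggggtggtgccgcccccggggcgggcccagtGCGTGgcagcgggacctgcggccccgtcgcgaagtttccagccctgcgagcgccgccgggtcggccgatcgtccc
PLOD3 (chr7:101217532-101217831, minus strand): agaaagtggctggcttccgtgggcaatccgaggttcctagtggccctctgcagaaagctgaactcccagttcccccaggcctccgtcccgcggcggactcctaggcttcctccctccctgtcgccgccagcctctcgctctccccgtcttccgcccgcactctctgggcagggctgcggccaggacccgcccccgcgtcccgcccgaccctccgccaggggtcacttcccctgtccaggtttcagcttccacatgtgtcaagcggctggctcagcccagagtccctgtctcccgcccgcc
P4HA1 (chr10:73096817-73097116, minus strand): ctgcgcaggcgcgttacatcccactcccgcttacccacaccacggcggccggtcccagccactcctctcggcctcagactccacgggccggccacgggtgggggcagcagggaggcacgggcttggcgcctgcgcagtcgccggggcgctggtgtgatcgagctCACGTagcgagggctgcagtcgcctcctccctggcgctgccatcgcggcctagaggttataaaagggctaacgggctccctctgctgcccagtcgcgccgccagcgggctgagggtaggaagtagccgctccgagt
LOX (chr5:122078210-122078509, minus strand): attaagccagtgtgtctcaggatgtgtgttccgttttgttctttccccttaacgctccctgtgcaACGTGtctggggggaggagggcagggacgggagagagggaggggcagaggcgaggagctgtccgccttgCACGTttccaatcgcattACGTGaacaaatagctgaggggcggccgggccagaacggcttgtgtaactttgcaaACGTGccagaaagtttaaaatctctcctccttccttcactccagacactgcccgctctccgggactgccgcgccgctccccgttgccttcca

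PLOD2 held 3 matches, of which 2 were ACGTG. The LOX region shown held 4 matches, all of them ACGTG, and the other two annotated LOX start regions held 2 each, 1 ACGTG and 1 GCGTG. PLOD1 held 2 matches, both GCGTG, P4HA1 held 1 and PLOD3 held 0. Of the members examined but not shown, P4HA2 held 0 matches and P3H1 held 1, a GCGTG. Among 35116 start regions of this length, 48.4% held at least 1 match and 10.1% held at least 3. These matches describe the letters only.

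The deposited values were taken to be on the log2 scale that RMA gives, since no source states their log base. They are centred, so that each probe set has a median of 0 over the 6 arrays. The values therefore compare arrays and give no expression level, and whether a gene was detected at all cannot be read from them. Differences below are SHCBP1 shRNA minus control shRNA on the log2 scale, tested with limma across all genes and called at a Benjamini-Hochberg adjusted p under 0.05. SHCBP1 itself checked the labels: its centred log2 values were -0.95, -0.76 and -0.72 in SHCBP1 shRNA cells, against 0.72, 0.76 and 0.71 in control shRNA cells. Of all genes tested, 41.0% passed the threshold, 22.0% higher and 19.0% lower, with a median log2 change of 0.02. Bacterial poly-A RNAs spiked in as controls read 0.43 log2 higher on the SHCBP1 shRNA arrays (0.34 to 0.53 over single pairs of arrays). All changes below are thus relative to the other genes, and scaling to the spike-ins would lower each of them by that amount.

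One lysyl hydroxylase rose strongly while a set of other collagen hydroxylase genes fell by small amounts. PLOD2 was 1.98-fold higher in SHCBP1 shRNA cells. PLOD1, PLOD3, P4HA1, P3H1 and P3H4 were between 1.11-fold and 1.26-fold lower. P4HA2, P4HA3, LOX and LOXL2 did not pass the test. Thus 1 of 10 members was called higher and 5 lower, 6 in all, beside a background of 41.0% of genes called. With 10 members, this share is not far from the background. The median log2 change of the 10 was -0.10, against 0.02 over all genes, and their median size was 0.17, against 0.11.

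**Figure D1:**
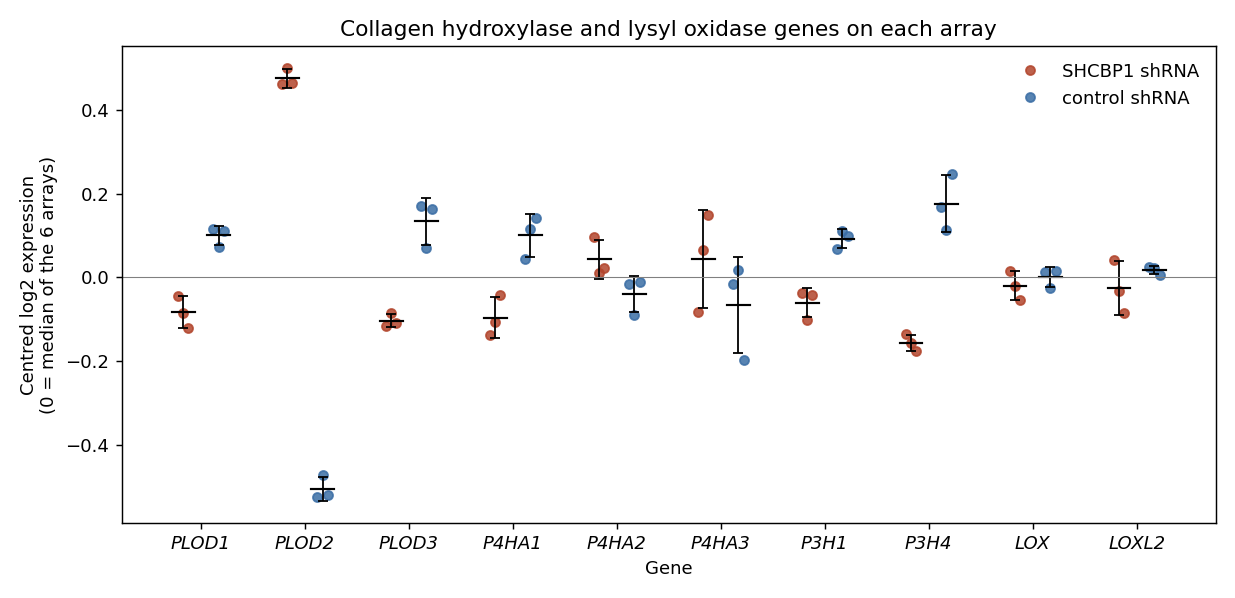
Centred log2 expression (0 is the median of the 6 arrays) of the 10 genes. Points are single arrays, SHCBP1 shRNA left of control shRNA for each gene, and bars are the mean ± SD of 3 arrays. PLOD2 stands apart, near 0.48 in SHCBP1 shRNA cells and -0.51 in control shRNA cells.

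PLOD2 had centred log2 values of 0.46, 0.50 and 0.46 in SHCBP1 shRNA cells, against -0.53, -0.47 and -0.52 in control shRNA cells. All SHCBP1 shRNA arrays lay far above all control shRNA arrays, and the spread within each group was small. The group means were 0.48 ± 0.022 in SHCBP1 shRNA cells and -0.51 ± 0.028 in control shRNA cells (SD, n = 3 each). The log2 change was 0.98 ± 0.03 (SE, 95% confidence interval 0.90 to 1.06, limma Benjamini-Hochberg adjusted p = 1.27e-06). Only 62 of the 18132 genes rose further, which places PLOD2 at rank 63. Its 4 probe sets agreed closely, with log2 changes of 0.94, 1.05, 0.99 and 0.95, and each passed the threshold on its own. Scaled to the spike-in controls, the rise was 0.55, still past the threshold (limma Benjamini-Hochberg adjusted p = 1.27e-05).

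PLOD1, which hydroxylates lysine within the helix, moved the other way. Its centred log2 values were -0.043, -0.084 and -0.12 in SHCBP1 shRNA cells, against 0.12, 0.074 and 0.11 in control shRNA cells. The groups did not overlap, and the log2 change was -0.18 ± 0.04 (SE, limma Benjamini-Hochberg adjusted p = 0.00426). Its probe sets fell by 0.16 and 0.21, and both passed on their own.

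PLOD3, which also carries glycosyltransferase activity toward hydroxylysine, had values of -0.12, -0.085 and -0.11 in SHCBP1 shRNA cells, against 0.17, 0.070 and 0.16 in control shRNA cells. Again the groups were apart, although control replicate 2 lay closest to the SHCBP1 shRNA arrays. The log2 change was -0.24 ± 0.04 (SE, limma Benjamini-Hochberg adjusted p = 0.00178), and all 5 probe sets passed on their own, with changes from -0.32 to -0.19.

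To compare the lysyl hydroxylases within each array, the mean of PLOD1 and PLOD3 was subtracted from PLOD2. This difference was 0.54, 0.59 and 0.58 in SHCBP1 shRNA cells, against -0.67, -0.55 and -0.66 in control shRNA cells. The 2 groups differed by 1.19 ± 0.04 (SE) on the log2 scale, with no overlap. The exact two-sided permutation test gave p = 0.1, the smallest that 3 arrays against 3 allow, so it cannot pass 0.05. Being taken within an array, the difference does not depend on the spike-in scaling.

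Prolyl 4-hydroxylase is built from alpha subunits, which carry the active site, and the protein disulfide isomerase P4HB. P4HA1, the main alpha subunit of most cells, had centred log2 values of -0.14, -0.11 and -0.043 in SHCBP1 shRNA cells, against 0.043, 0.12 and 0.14 in control shRNA cells. The groups did not overlap, but SHCBP1 shRNA replicate 3 and control replicate 1 were close to each other. Its log2 change was -0.20 ± 0.04 (SE, limma Benjamini-Hochberg adjusted p = 0.0072). The value rests on 1 probe set, of the _s_at kind that Affymetrix uses for probes shared between transcripts.

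P4HA2, an alternative alpha subunit, had values of 0.098, 0.012 and 0.023 in SHCBP1 shRNA cells, against -0.017, -0.090 and -0.012 in control shRNA cells. Here the SHCBP1 shRNA arrays were the higher ones, without overlap, yet the difference of 0.08 did not pass the test (95% confidence interval -0.01 to 0.18, limma Benjamini-Hochberg adjusted p = 0.15). P4HA3, a further alpha subunit, had values of -0.082, 0.065 and 0.15 in SHCBP1 shRNA cells and -0.017, 0.017 and -0.20 in control shRNA cells. Its groups overlapped, and its interval ran from -0.07 to 0.29. Both genes rest on 1 probe set each, and scaling to the spike-ins turns their changes to -0.35 and -0.32.

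Within arrays, P4HA1 minus P4HA2 was -0.23, -0.12 and -0.066 in SHCBP1 shRNA cells, against 0.060, 0.21 and 0.15 in control shRNA cells. Between the groups, this RNA difference changed by -0.28 ± 0.07 (SE) with no overlap. It rests on 1 probe set per gene, and centred values give no ratio of the subunits. The exact two-sided permutation test gave p = 0.1, again the smallest possible.

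P3H1 hydroxylates single proline residues of collagen as part of a complex with CRTAP and the cyclophilin PPIB. Its centred log2 values were -0.038, -0.10 and -0.041 in SHCBP1 shRNA cells, against 0.068, 0.11 and 0.10 in control shRNA cells. The groups were apart, with a log2 change of -0.15 ± 0.03 (SE, limma Benjamini-Hochberg adjusted p = 0.00931). It was the least of the 5 falls, and 1 of its 3 probe sets passed on its own, while all 3 had negative changes.

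P3H4 has no hydroxylase activity of its own and is known from mice to work with PLOD1 in helical lysine hydroxylation. It fell furthest of the 10 genes, with values of -0.14, -0.16 and -0.18 in SHCBP1 shRNA cells, against 0.17, 0.11 and 0.25 in control shRNA cells. The log2 change was -0.33 ± 0.04 (SE, limma Benjamini-Hochberg adjusted p = 0.000479). All 3 of its probe sets fell, by 0.27 to 0.38 on the log2 scale.

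LOX, which oxidises lysine in collagen and elastin, had centred log2 values of 0.016, -0.021 and -0.053 in SHCBP1 shRNA cells, against 0.012, -0.025 and 0.016 in control shRNA cells. The groups overlapped, and the change of -0.021 had a 95% confidence interval of -0.10 to 0.06 (limma Benjamini-Hochberg adjusted p = 0.699). Its 6 probe sets disagreed: 3 had positive and 3 had negative changes. Of these, 1 of the negative ones passed the threshold (log2 change -0.30, limma Benjamini-Hochberg adjusted p = 0.0433). The other 5 ranged from -0.06 to 0.11.

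LOXL2, a relative that acts on basement membrane collagen, had values of 0.042, -0.031 and -0.086 in SHCBP1 shRNA cells, against 0.025, 0.023 and 0.0066 in control shRNA cells. The SHCBP1 shRNA arrays spread on both sides of the control shRNA arrays. Its log2 change of -0.043 had a 95% confidence interval of -0.14 to 0.05 (limma Benjamini-Hochberg adjusted p = 0.466), and none of its 4 probe sets passed. The intervals of LOX and LOXL2 both lay below the log2 change of 0.98 measured for PLOD2, but they cover only the spread between arrays. Centred values do not show whether either oxidase gene was detected. Whether its RNA changed by more than the arrays read was therefore not tested. LOX minus LOXL2 differed by 0.023 ± 0.024 (SE) between the groups (exact two-sided permutation p = 0.4).

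**Figure D2:**
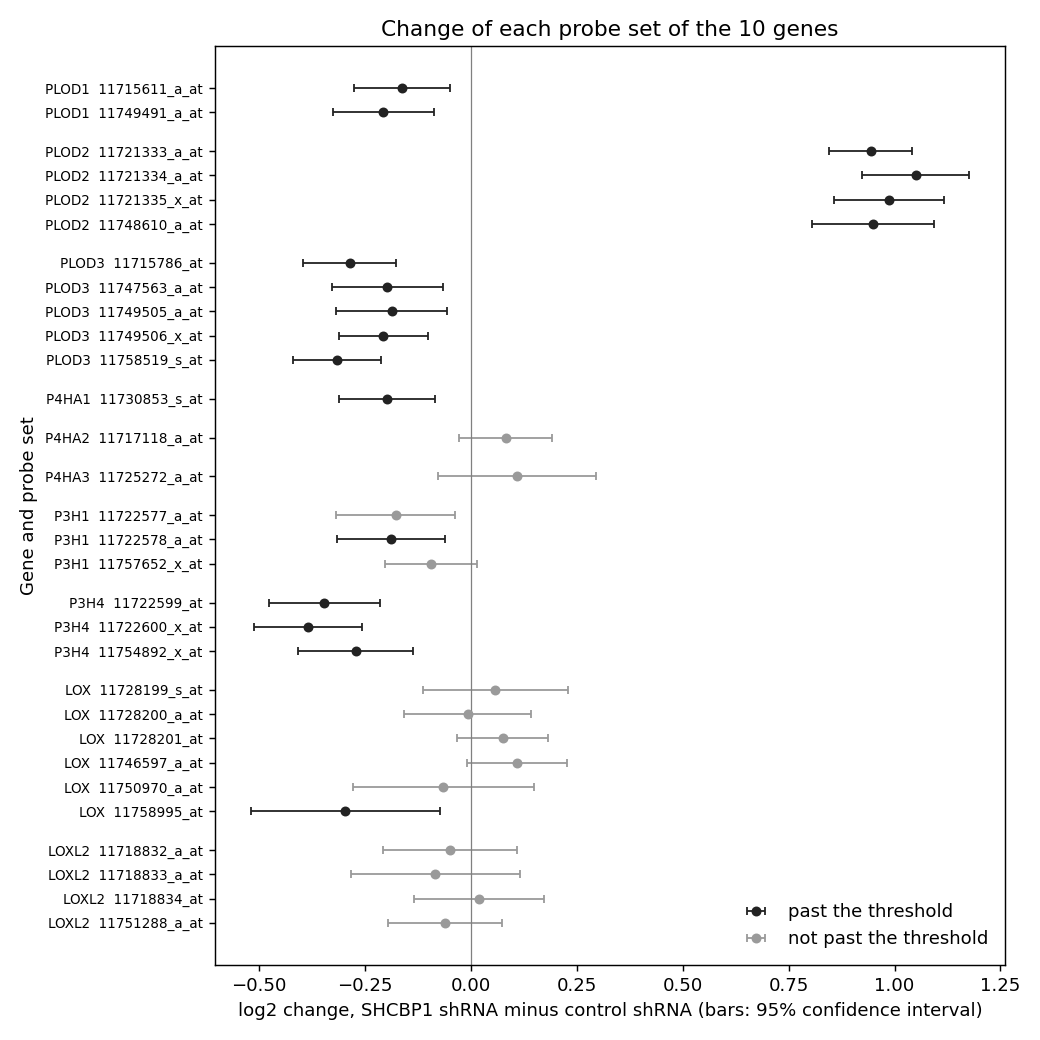
Log2 change (SHCBP1 shRNA minus control shRNA) of each of the 30 probe sets, grouped by gene, with 95% confidence intervals from limma. Dark points passed an adjusted p under 0.05: the 4 probe sets of PLOD2 lie near 1, and the 13 called lower lie between -0.38 and -0.16.

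Across the 30 probe sets, 4 were called higher, all of PLOD2, and 13 lower, 17 in all. Of all probe sets on the array, 38.0% were called, 19.9% higher and 18.1% lower. Of the 13 lower calls, 1 was of LOX, which did not pass as a gene. The 5 genes called lower had 14 probe sets, and all 14 had negative changes. That sign is partly set in advance, since each gene was called on the mean of these same probe sets. Leaving out control shRNA replicate 1 or control shRNA replicate 3 left 11 calls among the 30, 4 higher and 7 lower in both cases. For 7 of the 10 genes the groups did not overlap, 5 lower and 2 higher. Among all genes 50.0% were so separated, 22.7% lower and 27.3% higher. RNA came from whole cultures, so a change in every cell and a change in some of the cells cannot be told apart.

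Over the 6 arrays, the 3 genes nearest to PLOD2 by Euclidean distance were SMIM7, HPGD and RWDD1, with distances of 0.073, 0.074 and 0.075 in centred log2 units. They rose by 0.98, 1.03 and 1.0 on the log2 scale. The likeness mostly measures a group difference of the same size.

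Other subunits, relatives and partners of the prolyl hydroxylases were next compared. Of 6 tested, 4 fell and 0 rose by limma (4 had an unadjusted p under 0.05), with a median of -0.22, beside 19.0% of all genes lower and a median of 0.02. PPIB, the cyclophilin that turns proline bonds in the chain, had values of -0.24, -0.29 and -0.24 in SHCBP1 shRNA cells, against 0.27, 0.23 and 0.26 in control shRNA cells, and fell by 0.51 ± 0.03 (SE). P4HB, the shared subunit of the prolyl 4-hydroxylases, fell by 0.31 and P4HTM, a membrane-bound relative, by 0.23. CRTAP, chosen after its values were seen because it completes the complex of P3H1 and PPIB, fell by 0.22, with probe sets from -0.50 to -0.07.

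Among 10 genes of collagen glycosylation, folding and export, 5 fell and 3 rose, with a median of -0.20 (0.02 over all genes). Calls made up 80% of this list, beside 41.0% of all genes, and lower calls 50%, beside 19.0%. SEC24D, a coat protein of the vesicles that carry procollagen, fell by 0.55. TMEM38B, an endoplasmic reticulum cation channel, fell by 0.53. The prolyl isomerase FKBP14 fell by 0.42. Named after their values were seen, the collagen chaperone SERPINH1 rose by 0.23 and the collagen galactosyltransferase COLGALT1 by 0.22. SEC23A, also named afterwards, had the largest rise of this list, at 0.28. FKBP10, known as a partner of PLOD2 and likewise named after its values were seen, had a change of -0.16 that missed the threshold (limma Benjamini-Hochberg adjusted p = 0.0509).

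Few calls were made among the substrate genes, but centred values cannot show whether these genes were detected. A gene mean can also join unlike probe sets: those of COL1A1 ranged from -0.09 to 0.44. Of 11 fibrillar collagen genes, 0 passed limma's test, beside 41.0% of all genes, and 1 had an unadjusted p under 0.05. COL27A1 had the largest size, at 0.15 ± 0.10 (SE). Without SHCBP1 shRNA replicate 3, 1 of these genes was called, and without _s_at and _x_at probe sets 2 were, all higher. COL4A2, a basement membrane chain, had values of -0.58, -0.61 and -0.61 in SHCBP1 shRNA cells, against 0.72, 0.55 and 0.64 in control shRNA cells, and fell by 1.24 ± 0.05 (SE). COL18A1 fell by 0.32 and COL15A1 rose by 0.17, and these 3 were the calls among 9 basement membrane collagen genes. That share, 33.3%, was not above the 41.0% of all genes called. COL4A1, the usual partner of COL4A2 and named after its values were seen, had a change of -0.033 ± 0.041 (SE).

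Extracellular partners of the oxidases followed. LOXL1, LOXL3 and LOXL4 did not pass limma's test (1 of the 3 had an unadjusted p under 0.05), and LOXL1 had the largest size, at -0.21 ± 0.14 (SE). Of 12 elastic fibre and oxidase partner genes 0 passed limma's test, beside 41.0% of all genes, and 1 had an unadjusted p under 0.05. Fibronectin (FN1) had the largest size there, at -0.12 ± 0.06 (SE). One of these genes was called lower without control shRNA replicate 2, and 1 without _s_at and _x_at probe sets. Among 8 procollagen-processing genes, BMP1, the proteinase that trims procollagen and activates LOX, was the one that passed, with a rise of 0.12 (limma Benjamini-Hochberg adjusted p = 0.0315). Its 5 probe sets disagreed in sign, with changes from -0.19 to 0.44. That call was lost when any one of SHCBP1 shRNA replicates 1 and 2 and control shRNA replicates 1 and 3 was left out, with the replicate block and with the median of probe sets.

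Of 11 genes that supply ascorbate, iron or copper, 4 fell and 2 rose. The share called, 54.5%, was not far from the 41.0% of all genes. SLC2A1, which carries glucose and oxidised ascorbate, fell by 1.13. SLC31A1, the main copper importer, had values of -0.45, -0.50 and -0.50 in SHCBP1 shRNA cells, against 0.58, 0.45 and 0.52 in control shRNA cells, and fell by 1.0 ± 0.04 (SE). TFRC, which takes up transferrin-bound iron, fell by 0.47.

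Other known hypoxia target genes were set beside PLOD2, which rose. Of 19 tested, 11 fell and 5 rose, with a median of -0.18 (0.02 over all genes). Lower calls were 57.9% of this list, beside 19.0% of all genes, and 84.2% were called in either direction, beside 41.0%. The mTORC1 inhibitor DDIT4 fell by 1.97, VEGFA, which encodes a growth factor for blood vessels, fell by 1.16, and SLC2A1 fell by the amount given above. DDIT4 rests on 1 probe set, and the 10 probe sets of VEGFA ranged from -1.61 to -0.39. Of the 5 genes that rose, ADM, named after its values were seen, had the largest rise, at 0.35. Among 9 oxygen-sensing hydroxylase and HIF subunit genes, 3 fell and 3 rose, 66.7% called. EGLN1, which marks HIF alpha subunits for destruction, fell by 0.54. EPAS1, a HIF alpha subunit, fell by 0.49, but its 2 probe sets gave -1.02 and 0.034. The alpha subunit gene HIF1A, named after its values were seen, did not pass, with a change of 0.022 (limma Benjamini-Hochberg adjusted p = 0.656). ARNT, the common HIF partner, rose by 0.45.

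**Figure D3:**
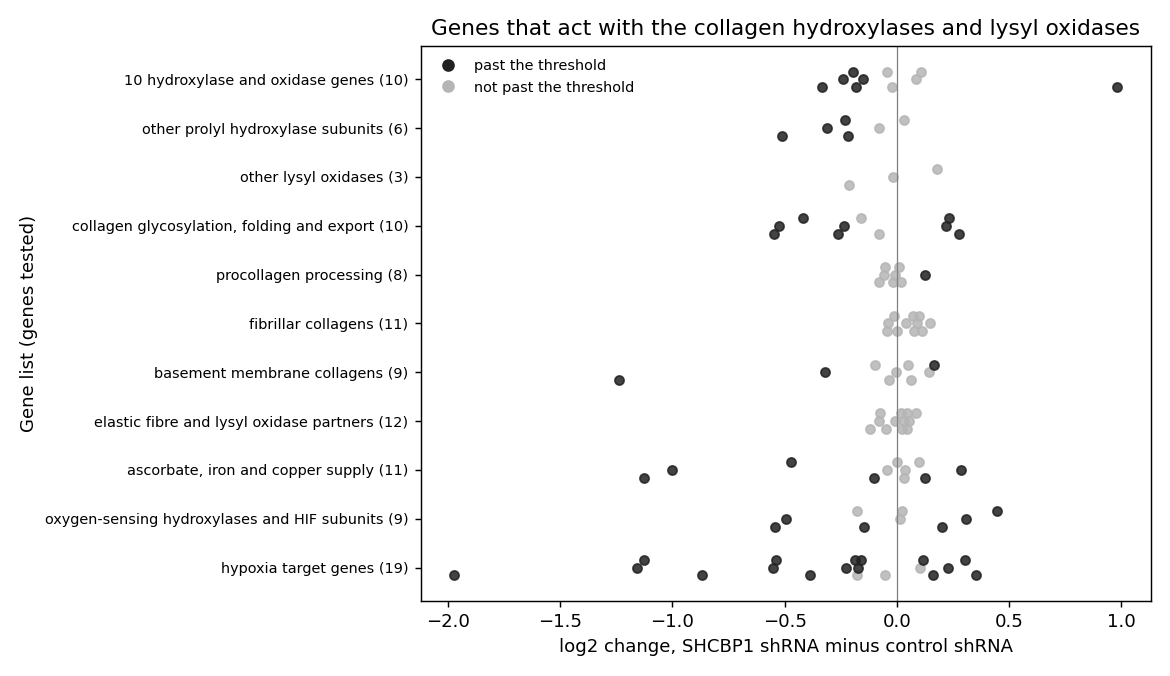
Log2 change (SHCBP1 shRNA minus control shRNA) of every tested gene in the 10 related lists and of the 10 hydroxylase and oxidase genes, 1 point per gene. Dark points passed an adjusted p under 0.05. PLOD2 is the point near 1 in the top row, and fibrillar collagen and elastic fibre genes lie close to 0.

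Over the 10 related lists together, 96 of 99 distinct genes were tested, of which 15 rose and 28 fell. That is 44.8% called, near the 41.0% of all genes, and 29.2% lower, beside 19.0% of all genes. Of 8 marker genes of fibroblasts, cells that make much collagen, 0 passed limma's test and 0 had an unadjusted p under 0.05. THY1 had the largest size, at 0.14 ± 0.08 (SE). Of 8 thyroid marker genes tested, FOXE1 rose by 0.24 and was the only call (2 calls without control shRNA replicate 1). Of 8 colorectal marker genes, LGR5 rose by 0.58, CDX2 rose by 0.12 and KRT20 fell by 1.09. Since centred values hold no levels, these lists cannot tell the TPC-1 and DLD1 labels apart.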

How the data were processed

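The labels assign 3 arrays to SHCBP1 shRNA and 3 to control shRNA. The authors deposited values made with RMA, per the submitters' processing notes. The sources used here name no software or version for RMA and no log base; the deposited values were read as log2 because RMA gives it. All 49395 deposited probe sets have a median of 0 over the 6 arrays, so they were centred before deposit, and no filter on dim probe sets could be set. A gene was the mean of its probe sets with 1 symbol (18132 genes). Control probe sets (102), those with several symbols (1832) and unnamed ones (2473) were left out of the gene values. RefSeq matched 44961 probe sets by Entrez number and updated 0 symbols.

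Genes and, separately, probe sets were fitted with lmFit and eBayes (limma 3.58.1, R 4.3.3), without pairing. The p-values were adjusted over the whole table by the Benjamini-Hochberg method, with a threshold of 0.05. The number of arrays limits the precision. Within-array differences used an exact permutation test. The limma fit was tested on simulated data with 18132 genes, 200 of them changed. It recovered 44%, 84% and 100% of changes of 0.25, 0.5 and 1, with 11 false among 167 calls. Since 41.0% of genes were called in the real data, far more than were changed there, these shares do not carry over to the real comparison. Named genes were the 10 members, SHCBP1, up to 3 called genes of largest size per list (1 where none passed), and the 3 nearest to PLOD2. Members and lists were chosen with earlier results of these data known. Differences between probe sets of arrays in a group had an SD of 0.13 to 0.14, against 0.35 between groups, so no array repeated another. Same-numbered arrays of the groups had correlations of their deviations of 0.018, -0.046 and 0.067, so the numbers were not taken as pairs.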

Additional observations from a re-analysis of the deposited data

How the results depend on the processing

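The calls of the 6 members (1 higher, 5 lower) kept their number under repeated quantile normalization, median centring, array weights, robust moderation, the median of probe sets and each left-out array (6 to 6). Without _s_at and _x_at probe sets 5 were called, because P4HA1 has no other probe set. With the replicate block, which pairs arrays by number only, 6 members and 13 of their probe sets were called, and 41 related genes. Leaving out 1 array gave 11 to 16 called probe sets, 6655 to 6840 called genes and 38 to 42 called related genes, beside 17, 7440 and 43. Scaling to the spike-in controls called 16709 genes (441 higher, 16268 lower), 10 members (1 higher, 9 lower), 30 of their probe sets and 93 related genes, since it lowers every gene alike. It turned P4HA2 to -0.35 and P4HA3 to -0.32, and LOX reached -0.45 and LOXL2 -0.48. The median of probe sets put LOX at 0.0050, not past the threshold. Apart from spike-in scaling, PLOD2 ranged from 0.97 to 1.12 over 13 alternatives. The 3 within-array differences kept their sign in the alternatives run. Signal over background could not be judged, because centred values hold none.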
